A study of Mus musculus with 10 samples.

Results

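The potassium, calcium and TRP channel genes were the 140 of 24538 genes in the count data whose mouse symbols begin with Kcn, Cacn followed by a, b or g, or Trp followed by a, c, m or v, and go on as channel family symbols do. The rule uses symbols only and no measured value, but it was set with earlier results of these data known. By symbol, they comprised 92 potassium channel genes, 26 voltage-gated calcium channel genes and 22 TRP channel genes. Classes were also set by symbol and not by the function of each product. Among the potassium channel genes, 40 were classed as voltage-gated subunits (Kv), 15 as inward rectifiers (Kir) and 14 as the Kcnk family (K2P). Another 8 were classed as calcium- or sodium-activated channels (KCa) and 15 as auxiliary subunits. Of the calcium channel genes, 10 were classed as pore subunits and 16 as auxiliary subunits.

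RNA-seq compared 5 libraries of metastasis-associated macrophages (MAMs) with 5 libraries of resident alveolar macrophages (RAMs). All mice were wild type C57BL6/J, aged 8 to 10 weeks, and both populations were sorted as CD45+ F4/80+ LY6C- MRC1+ cells of high forward scatter. MAMs were CD11B+ CD11C- cells from dissected lung metastases under 1 mm, which had formed in females given E0771-LG mouse breast cancer cells by tail vein at 6 to 8 weeks of age. RAMs were CD11B- CD11C+ cells of normal lungs. Each MAM sample pooled metastases of 2 to 4 mice according to the sample records, by which a MAM library is a pool. The study's methods give a wider range for its metastasis samples, 1 to 5 mice. All tissue was digested in the presence of the transcription inhibitors alpha-amanitin and actinomycin D. The 2 groups differ in macrophage type and in tumor exposure at once, and these cannot be told apart here.

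Ion channels set the membrane potential of a macrophage and admit calcium, which acts as a signal inside the cell. Potassium channels let potassium leave and so hold the membrane potential negative, which keeps the driving force for calcium entry. Voltage-gated calcium channels open when the membrane depolarizes, and TRP channels are cation channels that open to stimuli such as lipids, oxidants, heat or stretch. Calcium-activated potassium channels link both ions, since they open when calcium rises.

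Depth was high in every library, with 55391447 to 87523247 counts on genes in MAMs and 50746305 to 72150650 in RAMs. The markers matched the sorting labels, since 9 of 10 alveolar macrophage genes were lower in MAMs, with summed levels of 425 to 808 CPM against 11612 to 14383 in RAMs, and 7 of 7 genes of monocyte-derived macrophages were higher, with 9320 to 10003 CPM against 166 to 187. These lists include Itgax and Itgam, the genes of the sorting markers CD11C and CD11B, whose part in the match was set by the gate. Itgam alone had a mean of 6270 CPM in MAMs against 64.3 in RAMs. CPM, counts scaled to library size, was computed with TMM factors. Genes were tested where the mean FPKM, a level per transcript length and mapped fragments, was at least 1 in either group. A gene was called when the fold change exceeded 2 and the adjusted p of edgeR's quasi-likelihood test was under 0.05, with Benjamini-Hochberg adjustment over 11571 genes. Each RAM sample was an individual mouse per the study's methods, and p-values measure only the spread between these samples.

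Most channel genes had few or no counts in both populations. No library had a count for 49 of the 140 genes. A count of 0 allows up to 3 counts per library, for counting error only, except for Trpc2, whose exons lie wholly within other genes. Another 67 genes had counts but stayed below the level required for testing, which left 24 tested genes. Of these, 17 were called, 7 higher and 10 lower in MAMs. Over all genes tested, 30.3% were called, 15.3% higher and 15.1% lower. The adjusted p alone was under 0.05 for 19 of the 24, against 56.2% of all genes tested, and in 17 the 5 MAM libraries and the 5 RAM libraries did not overlap, against 44.9% of all genes tested. The median log2 fold change was -0.37 over the 24 genes and -0.02 over all genes tested.

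How a gene passed the filter bears on these counts. A gene that reached a mean FPKM of 1 in 1 group only had to differ between groups. This held for 14 of the 24, 7 through MAMs and 7 through RAMs, and all 14 were called, where 75.9% of such genes were called over the whole table. The other 10 reached 1 in both groups. Of those, 3 were called, all lower in MAMs (Kcnn3, Kcna3 and Kcnh4), against 22.3% of such genes called in either direction and 11.4% lower.

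**Figure D1:**
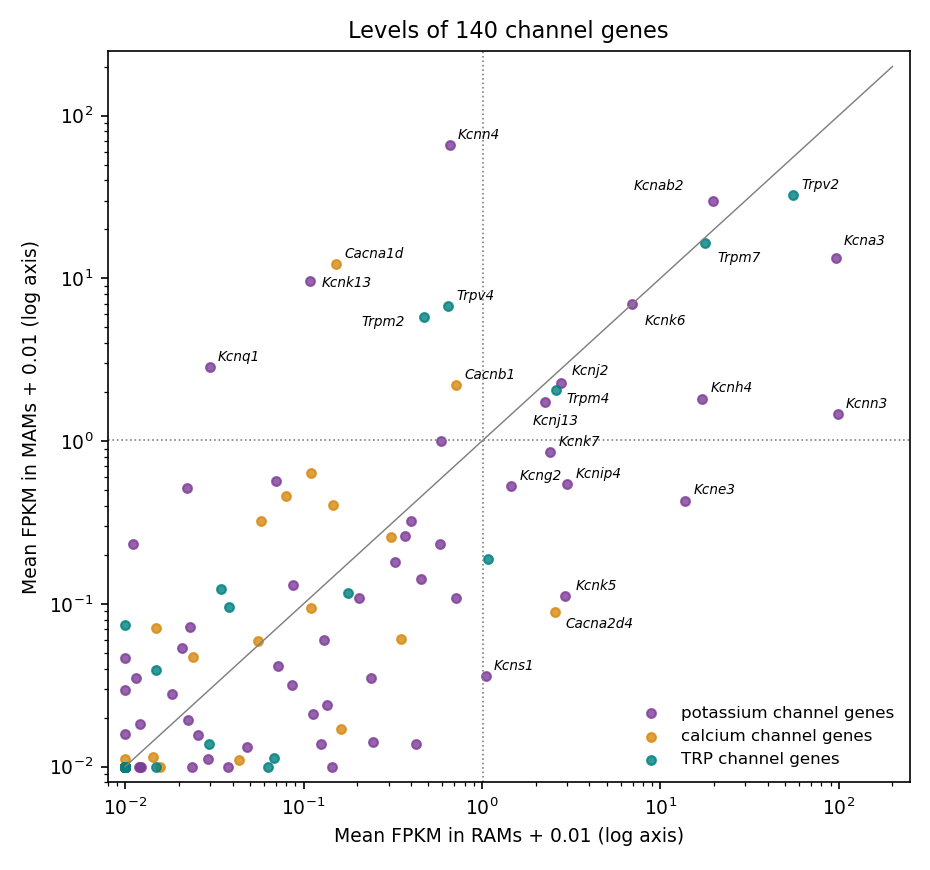
Mean FPKM of the 140 channel genes in MAMs (y axis) against RAMs (x axis), n = 5 libraries each, with 0.01 added and both axes logarithmic. Each point is 1 gene, dotted lines mark the FPKM of 1 required for testing, the diagonal marks equal levels, and the 24 tested genes are named. Kcnn4 stands far above the diagonal and Kcnn3 far below it, and most genes sit under 1 in both groups.

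The calcium-activated potassium channels exchanged members. RAMs carried Kcnn3, which codes for the small-conductance channel SK3, and MAMs carried Kcnn4, which codes for the intermediate-conductance channel KCa3.1. Both channels open through calmodulin when calcium rises. In GRCm38, Kcnn3 spans bases 89520164 to 89675132 of chromosome 3 and Kcnn4 bases 24370263 to 24386690 of chromosome 7, both on the plus strand. Neither shares exonic bases with another annotated gene.

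The 250 bases before the RefSeq start site (GRCm38.p6) are shown for these genes, whose levels moved in opposite directions. Those of Kcnk13, another gene at under 1% of its MAM level in RAMs, and of Kcnip4, which held a motif match, follow them. Kcnn3 is chr3:89519914-89520163 on the plus strand, Kcnn4 is chr7:24370013-24370262 on the plus strand, Kcnk13 is chr12:99964249-99964498 on the plus strand and Kcnip4 is chr5:49285660-49285909 on the minus strand, the first of 2 start sites. Each is written 5′ to 3′ in the direction of its gene, and capitals mark a match to the AP-1 motif.
Kcnn3: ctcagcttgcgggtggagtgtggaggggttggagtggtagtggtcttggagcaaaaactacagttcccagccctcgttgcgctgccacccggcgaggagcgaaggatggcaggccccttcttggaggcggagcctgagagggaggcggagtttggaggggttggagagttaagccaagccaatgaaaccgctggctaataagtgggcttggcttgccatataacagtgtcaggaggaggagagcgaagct
Kcnn4: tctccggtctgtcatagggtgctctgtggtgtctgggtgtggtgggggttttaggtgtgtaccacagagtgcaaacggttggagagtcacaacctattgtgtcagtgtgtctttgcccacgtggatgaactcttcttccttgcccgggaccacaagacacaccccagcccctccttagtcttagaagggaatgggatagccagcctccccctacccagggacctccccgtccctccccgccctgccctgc
Kcnk13: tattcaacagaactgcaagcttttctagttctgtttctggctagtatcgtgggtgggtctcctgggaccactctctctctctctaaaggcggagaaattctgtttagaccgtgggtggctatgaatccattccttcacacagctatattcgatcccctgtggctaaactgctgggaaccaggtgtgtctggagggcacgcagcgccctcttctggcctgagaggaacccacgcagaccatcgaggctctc
Kcnip4: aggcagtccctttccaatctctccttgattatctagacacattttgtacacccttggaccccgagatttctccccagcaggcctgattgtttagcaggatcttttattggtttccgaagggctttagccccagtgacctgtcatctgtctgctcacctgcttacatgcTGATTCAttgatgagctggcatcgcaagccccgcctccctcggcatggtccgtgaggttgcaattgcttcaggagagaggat

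The motifs of 3 factors of macrophages were searched on both strands of these windows, and 14 of the 17 called genes had a RefSeq window. The AP-1 letters TGANTCA occurred in 6.75% of all 32851 windows, in 0 of 8 windows of the 6 genes higher in MAMs and in 2 of 10 windows of the 8 lower genes, at base -82 in Kcnip4 and at base -37 in Kcne3. The PU.1 letters AGGAAGT occurred in 7.69% of all windows, in 0 of the 8 and 1 of the 10, at base -205 of Kcne3 on the minus strand. The IRF motif, the interferon response element core, occurred in 2.98% of all windows and in none of these. The windows of Kcnn3 and Kcnn4 had the same GC content, 58.8%, with 10 and 6 CpG dinucleotides, where the median of all windows was 52.4% and 6. A match is a description of letters only.

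Kcnn3 had 663, 904, 877, 750 and 785 CPM in RAM libraries 1 to 5. In MAM libraries 1 to 5 it had 20.8, 8.57, 10.7, 8.72 and 7.97 CPM. Every RAM library was thus far above every MAM library, and MAM replicate 1 was the highest of its group. The means were 11.4 ± 5.38 CPM in MAMs and 796 ± 97.8 in RAMs (SD, n = 5), a log2 fold change of -6.13 (SE 0.264, edgeR adjusted p = 3.3e-11). In bulk samples, fewer cells that express a gene and less RNA per cell cannot be told apart. Alveolar macrophage markers moved with this difference, and their part in it was not tested. Among MAMs, replicate 1 also had the highest sum of the alveolar list without Marco, 419 CPM against 322 to 341 in the others. Its Chil3, the most abundant gene of that list, was 108 CPM within a range of 89.1 to 118. Its Siglecf was 3.58 CPM within a range of 3.09 to 4.82. The list includes Itgax, the gene of the sorting marker CD11C, which ranged from 145 to 240 CPM in MAMs. The relation of this sum to Kcnn3 in replicate 1 was not tested.

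Kcnn4 had 116, 109, 82.6, 77.5 and 120 CPM in MAM libraries 1 to 5. In RAM libraries 1 to 5 it had 0.616, 0.811, 0.952, 1.31 and 0.682 CPM. The groups were apart by a wide margin and neither held a library that stood out. MAMs were higher by a log2 fold change of 6.86 (SE 0.229, edgeR adjusted p = 1.9e-12), from means of 101 ± 19.6 and 0.875 ± 0.277 CPM (SD, n = 5).

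Within the Kcnn family, Kcnn4 made up 97.8% ± 0.887 of the FPKM in MAMs and Kcnn3 99.3% ± 0.205 in RAMs (SD, n = 5). The family sum was 67.0 ± 13.1 FPKM in MAMs and 99.3 ± 12.7 in RAMs. So the sums differed far less than the single genes did. Each of these 2 genes ranked first of all 140 in its group on the FPKM scale, with 29.2% ± 3.49 of the FPKM of all members for Kcnn4 in MAMs and 27.5% ± 2.75 for Kcnn3 in RAMs.

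Kcnn4 in RAMs was at 0.867% of its MAM level and Kcnn3 in MAMs at 1.43% of its RAM level. The lowest levels of abundant genes were computed on CPM without TMM factors, a different scale, so they cannot be compared directly with these percentages. Among 86 genes above 1000 CPM on that scale in MAMs, the lowest level in RAMs was 1.06% of that in MAMs (C1qb). Among 65 genes above 1000 CPM on that scale in RAMs, the lowest level in MAMs was 0.992% of that in RAMs (Chil3). With TMM factors, Chil3 had a mean of 105 CPM in MAMs against 9151 in RAMs.

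**Figure D2:**
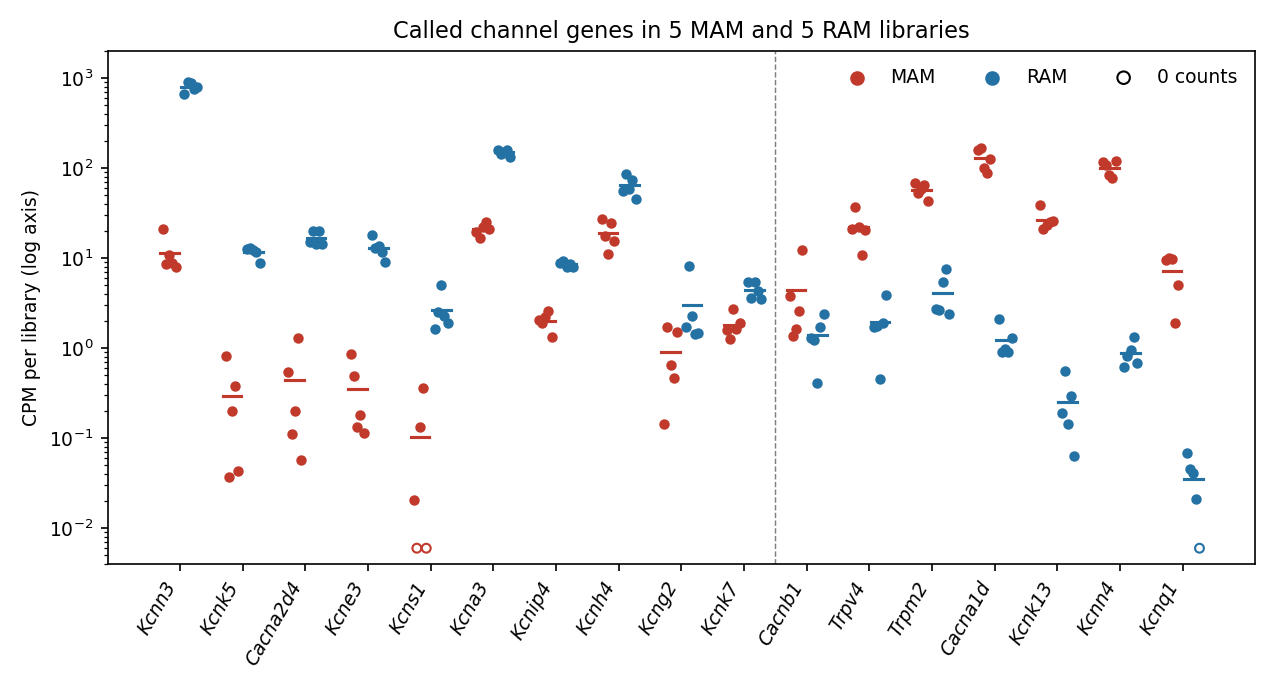
CPM of the 17 called channel genes in each library on a log axis, with MAMs in red and RAMs in blue, genes in order of log2 fold change, short lines at the means of 5 libraries and open circles for libraries with 0 counts. The groups overlap for Cacnb1 and Kcng2 and are apart for the other 15 genes.

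Of 40 voltage-gated potassium channel genes, 19 had 0 counts in all libraries and 5 were tested. Of these 5, 4 were called lower in MAMs and 1 higher, where 15.1% and 15.3% of all genes tested were, and 3 of the 5 reached the level for testing in 1 group only. Kcna3, which codes for Kv1.3, a channel of lymphocytes and macrophages, lies on chromosome 3 from 107036169 to 107038070 and has 1 exon. It had 19.5, 16.5, 22.3, 25.2 and 20.9 CPM in MAM libraries 1 to 5. In RAM libraries 1 to 5 it had 159, 142, 151, 159 and 132 CPM. Both groups were tight and did not overlap. The log2 fold change was -2.83 (SE 0.119, edgeR adjusted p = 2.5e-11). Kcna3 was kept at 13.4 ± 2.32 FPKM in MAMs against 96.2 ± 7.98 in RAMs (SD, n = 5), so it was lower but not near 0.

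Kcnh4, a member of the ether-a-go-go family, had 26.9, 17.8, 11.1, 24.2 and 15.6 CPM in MAM libraries 1 to 5. Its RAM libraries had 55.8, 85.7, 58.5, 73.7 and 45.6 CPM. The spread within each group was wide, and the groups were still apart. On counts the log2 fold change was -1.74 (SE 0.231, edgeR adjusted p = 1.1e-05), a difference of 3.34-fold, while the mean FPKM values of 1.81 in MAMs and 17.2 in RAMs differed by 9.47-fold. The counts and the FPKM values come from separate programs, and the cause of the gap was not tested.

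Kcns1 and Kcng2 code for modulatory subunits that form no channel on their own. Kcns1 had 1.61 to 5.03 CPM in RAMs against 0 to 0.362 in MAMs, with 0 counts in MAM replicates 2 and 5. Its log2 fold change was -4.67 (SE 1.01, edgeR adjusted p = 0.00104) and became -6.15 without MAM replicate 4. Kcng2 had 0.142 to 1.71 CPM in MAMs against 1.42 to 8.17 in RAMs, and the groups overlapped. With all libraries its log2 fold change was -1.74 (SE 0.71, edgeR adjusted p = 0.0494), and without RAM replicate 2 it was -0.93 (adjusted p = 0.273). Its call was also lost without MAM replicate 1, 3 or 4 or RAM replicate 1 or 3 (adjusted p = 0.0509 to 0.0962).

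Kcnq1, whose product carries the slow delayed rectifier current, was the voltage-gated gene higher in MAMs. It had 9.39, 10.1, 9.71, 1.92 and 4.98 CPM in MAM libraries 1 to 5, and 4, 3, 2, 1 and 0 counts in RAM libraries 1 to 5. The MAM levels were low and uneven, with replicate 4 lowest, but every RAM library was lower still. The log2 fold change was 7.54 (SE 0.714, edgeR adjusted p = 3.0e-07). Kcnq1 shares 121 exonic bases, 2.96%, with the antisense RNA Kcnq1ot1. How the authors set strand in counting is not given in the sources used here, so reads of the 2 cannot be told apart in that stretch. Kcnq1ot1 itself went the other way, with 8322 to 12275 counts in MAMs and 47489 to 74021 in RAMs.

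Of 15 auxiliary subunits of potassium channels, 3 were tested and 2 called, both lower in MAMs, where 15.1% of all genes tested were called lower. Both called genes reached the level for testing in RAMs only, and 75.9% of all genes that reached it in 1 group only were called. Kcne3, a small subunit that changes the gating of Kcnq1 and Kv channels, had 18.2, 12.9, 13.7, 11.5 and 8.99 CPM in RAM libraries 1 to 5. In MAM libraries 1 to 5 it had 0.854, 0.487, 0.134, 0.181 and 0.115 CPM. The groups were far apart, with a log2 fold change of -5.21 (SE 0.547, edgeR adjusted p = 9.2e-07) that became -5.83 without MAM replicate 1. Kcne3 and Kcnq1 moved in opposite directions. Kcnip4, a calcium-binding subunit of Kv4 channels, had 1.34 to 2.59 CPM in MAMs against 7.89 to 9.17 in RAMs, a log2 fold change of -2.08 (SE 0.295, edgeR adjusted p = 2.2e-05). Kcnab2, the beta subunit that joins Kv1 channels such as Kv1.3, was high in both groups. It had 91.5 to 115 CPM in MAMs against 57.8 to 68.6 in RAMs, without overlap. Its log2 fold change of 0.60 (SE 0.0937, edgeR adjusted p = 5.6e-05) was under the fold required for a call.

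Of the Kcnk genes, whose channels leak potassium at rest, 4 were tested. Kcnk13 codes for THIK-1, a channel known from microglia, and lies on chromosome 12 from 99964499 to 100062682 with no exonic overlap. It had 38.7, 21.0, 23.0, 25.3 and 25.6 CPM in MAM libraries 1 to 5. In RAM libraries 1 to 5 it had 0.188, 0.556, 0.145, 0.292 and 0.0639 CPM. MAM replicate 1 was high within its group, and the groups were far apart. This gave a log2 fold change of 6.69 (SE 0.440, edgeR adjusted p = 4.5e-09), and the RAM level was 0.931% of the MAM level.

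Kcnk5, which codes for the alkaline-activated channel TASK-2, went the other way. It had 8.76 to 12.9 CPM in RAMs against 0.0375 to 0.813 in MAMs, a log2 fold change of -5.31 (SE 0.672, edgeR adjusted p = 6.9e-06) that became -6.15 without MAM replicate 1. Kcnk7, a family member not known to conduct on its own, had 1.26 to 2.68 CPM in MAMs against 3.52 to 5.45 in RAMs. The groups did not overlap and the log2 fold change was -1.30 (SE 0.376, edgeR adjusted p = 0.00838). Kcnk6, which codes for TWIK-2, a channel tied to inflammasome activation in macrophages, had a log2 fold change of 0.01 (SE 0.153, edgeR adjusted p = 0.948). Its levels were 20.8 to 32.4 CPM in MAMs against 22.0 to 31.6 in RAMs, which overlap almost wholly.

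The make-up of the Kcnk family on the FPKM scale changed accordingly. Kcnk13 took 54.4% ± 4.93 in MAMs and 0.737% ± 0.352 in RAMs. Kcnk6 took 39.5% ± 3.12 and 52.3% ± 5.60, and Kcnk5 took 0.505% ± 0.524 and 22.2% ± 2.39 (SD, n = 5). The family sums were 17.6 ± 3.34 FPKM in MAMs and 13.2 ± 0.596 in RAMs.

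**Figure D3:**
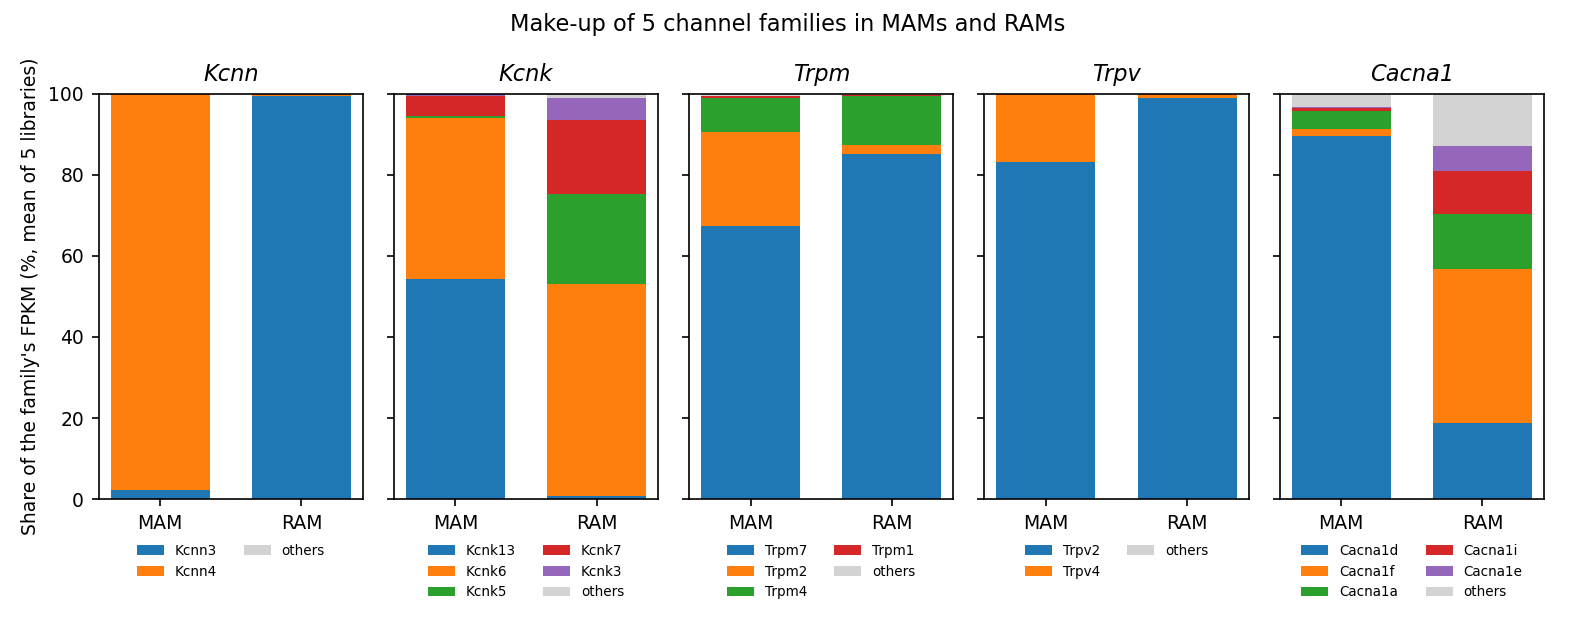
Share of the FPKM of 5 channel families taken by each gene, as the mean of 5 libraries, in MAMs and RAMs. Kcnn4 fills the Kcnn bar in MAMs (97.8%) and Kcnn3 in RAMs (99.3%), Cacna1d fills most of the Cacna1 bar in MAMs (89.4%), and Trpv2 and Trpm7 lead their families in both groups.

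No inward rectifier was called, and 2 of 15 were tested. Kcnj2, the Kir2.1 channel of macrophages, had 10.9 to 18.4 CPM in MAMs against 9.79 to 23.5 in RAMs. Kcnj13, the Kir7.1 channel, had 6.75 to 9.54 and 6.08 to 15.4 CPM. Both groups overlapped for both genes, with log2 fold changes of -0.33 (edgeR adjusted p = 0.276) and -0.41 (edgeR adjusted p = 0.205). Kcnj13 shares 49.1% of its exonic bases with Gigyf2 on the other strand, whose 88.7 to 130 CPM exceeded it, so its value is uncertain.

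Calcium channel genes were few in either population. Of 10 pore subunits, only Cacna1d was tested. It codes for Cav1.3, an L-type channel that opens at rather negative potentials, and lies on chromosome 14 from 30039939 to 30491455 on the minus strand. It had 157, 168, 101, 87.7 and 126 CPM in MAM libraries 1 to 5. In RAM libraries 1 to 5 it had 2.11, 0.916, 0.973, 0.897 and 1.30 CPM. Every MAM library was far above every RAM library. This gave a log2 fold change of 6.68 (SE 0.284, edgeR adjusted p = 2.9e-11), and the RAM level was 0.967% of the MAM level. Cacna1d shares 589 exonic bases, 4.67%, with Chdh on the other strand. Chdh, an enzyme of choline oxidation, was also higher in MAMs, at 5.81 ± 2.08 CPM against 0.0468 ± 0.0246 (SD, n = 5), and its part in the counts of Cacna1d was not tested.

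Cacna1d made up 89.4% ± 3.58 of the FPKM of the pore subunits in MAMs and 18.7% ± 5.25 in RAMs (SD, n = 5). The sum over the 10 genes was 13.6 ± 3.85 FPKM in MAMs and 0.790 ± 0.208 in RAMs, so RAMs had hardly any pore subunit transcript. Of 16 auxiliary subunits, 2 were tested. Cacna2d4, an alpha2delta subunit that aids the transport of pore subunits to the membrane, had 14.2 to 19.9 CPM in RAMs against 0.0575 to 1.30 in MAMs. Its log2 fold change was -5.22 (SE 0.654, edgeR adjusted p = 6.3e-06), the direction opposite to Cacna1d, and -6.20 without MAM replicate 4. Cacnb1, an intracellular beta subunit, had 3.82, 1.37, 1.61, 2.57 and 12.4 CPM in MAM libraries 1 to 5. Its RAM libraries had 0.414 to 2.41 CPM, so the groups overlapped. The log2 fold change of 1.63 (SE 0.650, edgeR adjusted p = 0.0451) became 0.73 without MAM replicate 5 (adjusted p = 0.300). Its call was also lost without MAM replicate 1 or RAM replicate 1, 2, 3 or 4 (adjusted p = 0.0550 to 0.0924).

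TRP channel genes were led by Trpv2 and Trpm7 in both groups, and 5 of 22 were tested. Trpm2, a channel opened by ADP-ribose under oxidative stress, had 68.1, 53.0, 58.3, 63.9 and 42.9 CPM in MAM libraries 1 to 5. In RAM libraries 1 to 5 it had 2.72, 2.64, 5.40, 7.47 and 2.41 CPM. The groups were apart, with a log2 fold change of 3.80 (SE 0.310, edgeR adjusted p = 5.5e-08). Trpv4, a channel that responds to swelling and warmth, had 21.0, 36.9, 21.8, 10.8 and 20.3 CPM in MAM libraries 1 to 5. Its RAM libraries had 1.73, 1.74, 0.456, 1.88 and 3.90 CPM. MAM levels spread widely but none reached down to RAM levels, and the log2 fold change was 3.51 (SE 0.461, edgeR adjusted p = 1.0e-05).

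The more abundant TRP genes moved less. Trpv2, a channel that takes part in phagocytosis, had 83.4 to 101 CPM in MAMs against 147 to 158 in RAMs without overlap. Its log2 fold change of -0.76 (SE 0.0767, edgeR adjusted p = 6.0e-07) was under the fold required for a call. Trpm7, a channel fused to a kinase that carries magnesium, had 118 to 164 CPM in MAMs against 147.9 to 183 in RAMs, with a log2 fold change of -0.10 (edgeR adjusted p = 0.404). Trpm4, a calcium-activated channel for monovalent cations, had 7.58 to 14.9 and 10.4 to 23.9 CPM, a log2 fold change of -0.33 (edgeR adjusted p = 0.325). Trpc2 was listed at a mean of 1.08 FPKM in RAMs but had 0 counts in every library, so it was not tested. All of its exonic bases are shared with Xndc1 and Xntrpc on the same strand, so its 0 counts set no limit on its level. On the FPKM scale, Trpv4 took 16.9% ± 5.57 of the Trpv family in MAMs and 1.11% ± 0.874 in RAMs, and Trpm2 took 23.2% ± 2.72 and 2.27% ± 1.27 of the Trpm family (SD, n = 5).

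**Figure D4:**
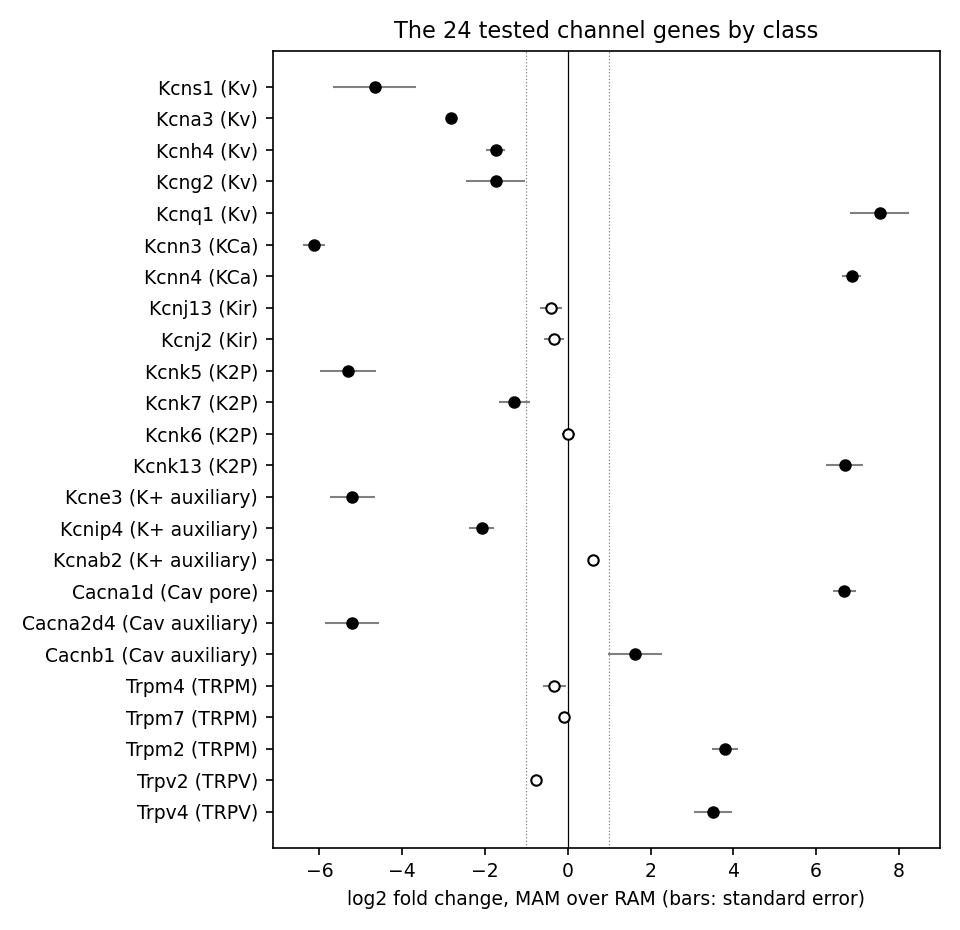
Log2 fold change of MAMs over RAMs (x axis) for the 24 tested channel genes, grouped by class, with standard errors from edgeR as bars, filled points for the 17 called genes and dotted lines at a 2-fold difference. Most potassium channel genes lie on the left, while Kcnq1, Kcnn4, Kcnk13 and Cacna1d lie beyond 6 on the right.

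The order of levels per length differed between the populations. In MAMs it ran Kcnn4 (65.5 FPKM), Trpv2 (32.5), Kcnab2 (29.9), Trpm7 (16.5), Kcna3 (13.4), Cacna1d (12.2), Kcnk13 (9.65), Kcnk6 (6.93), Trpv4 (6.76) and Trpm2 (5.74). Of these neighbors, only Kcnn4 and Trpv2, and Kcnab2 and Trpm7, were apart in all 5 libraries. In RAMs it ran Kcnn3 (98.6 FPKM), Kcna3 (96.2), Trpv2 (55.3), Kcnab2 (19.8), Trpm7 (17.8), Kcnh4 (17.2), Kcne3 (13.8), Kcnk6 (6.92), Kcnip4 (3.0) and Kcnk5 (2.93). Kcnn3 and Kcna3 did not differ beyond their spread, and neither did neighboring genes from Kcnab2 to Kcne3, nor Kcnip4 and Kcnk5. The sum over all 140 genes was 223 ± 19.9 FPKM in MAMs and 358 ± 18.5 in RAMs (SD, n = 5).

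Below the level for testing, 44 genes still averaged at least 10 counts per library in a group. The 5 with the highest mean counts were Kcnab1, Cacna1a, Cacna1f, Cacnb4 and Cacna1b. Cacnb4, a beta subunit, had 3.78 to 5.39 CPM in MAMs against 0.207 to 1.13 in RAMs, and Cacna1b, the N-type pore subunit, had 2.10 to 6.09 and 0.0417 to 1.08. For these 2 genes the groups did not overlap, which held for 6 of the 67 untested genes with counts against 8.91% of all untested genes with counts. Cacna1a, the P/Q-type pore subunit, had 1.45 to 9.11 and 1.10 to 2.39 CPM, Cacna1f, a retinal L-type pore subunit, had 1.43 to 5.84 and 1.19 to 3.48, and Kcnab1 had 2.38 to 6.77 and 1.54 to 6.61, all with overlap. In a fit without the filter, 16 of the 67 untested channel genes with counts were called, 7 higher and 9 lower in MAMs, and in 10 of the 16 the groups overlapped. Of all untested genes with counts, 19.6% were called in that fit, 9.05% higher and 10.6% lower. Counts of low genes came unevenly: in 32 of the 67 untested genes with any count, a single library held over 50% of all counts, against 1 of the 24 tested genes.

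The channels act together with pumps, exchangers and stores of calcium, and 87 such partner genes were listed. Of 68 tested, 16 were called higher in MAMs and 7 lower, and 45 were not called, with a median log2 fold change of 0.12. Over all genes tested 30.3% were called, 15.3% higher and 15.1% lower, so the 23 of 68 are near the general share. Atp1b3, a subunit of the pump that builds the gradient potassium channels use, had 374 ± 79.0 CPM in RAMs and 880 ± 180 in MAMs (SD, n = 5), a log2 fold change of 1.23 (SE 0.152, edgeR adjusted p = 5.2e-06).

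Of 6 listed genes of calcium release from the endoplasmic reticulum, 4 were tested and all 4 called, where 30.3% of all genes tested were called. Itpr3 and Ryr1 reached a mean FPKM of 1 in MAMs only (0.455 and 0.323 in RAMs). Of all genes that reached it in 1 group only, 75.9% were called, so the filter bears on this count. Itpr1, Itpr3 and Ryr1 were higher in MAMs, with log2 fold changes of 1.94, 3.31 and 1.58, and Itpr2 was lower, with -1.83. The lysosomal channels had 4 called of 6 tested, against the same 30.3%, with 3 higher (Tpcn1 2.28, Tpcn2 1.81 and Mcoln2 1.97, as log2 fold changes) and 1 lower (Mcoln3, -4.31). Of the mitochondrial uniporter, the pore gene Mcu was higher by 3.66 and its inhibitory paralog Mcub by 2.26 on the log2 scale. Mcu also reached a mean FPKM of 1 in MAMs only (0.583 in RAMs). Of 7 tested genes of store-operated entry, 1 was called, Stim2 at 1.93. The channel gene Orai3 had 24.8 to 35.4 CPM in MAMs against 50.4 to 65.3 in RAMs without overlap, and its log2 fold change of -0.98 (edgeR adjusted p = 5.6e-06) was just under the fold required. Saraf was at -0.49 (edgeR adjusted p = 0.0013) and Orai1 at 0.08 (edgeR adjusted p = 0.541).

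Other partners were lower in MAMs. The proton channel Hvcn1, which supports the oxidative burst, had 20.8 to 37.1 CPM in MAMs against 200 to 241 in RAMs, a log2 fold change of -3.04. Ttyh2 had -2.20, and among the calmodulin-dependent kinases Camk2d had -1.35, Camk2g -1.43 and Camk1 -1.03. The transcription factor gene Nfatc2, which calcineurin activates, was higher at 4.52. The plasma membrane pump Atp2b1, which removes calcium, was higher at 1.11, as was Atp2a3 at 1.95, and the volume channel gene Lrrc8c at 1.53. Nfatc2 and Atp2a3 reached a mean FPKM of 1 in MAMs only (0.690 and 0.782 in RAMs). Of all genes that reached it in 1 group only, 75.9% were called, so the filter bears on these calls. Among the 23 called partner genes, the largest edgeR adjusted p was 0.00176, for Ryr1, whose groups overlapped at 10.4 to 29.5 CPM in MAMs against 3.27 to 11.0 in RAMs.

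**Figure D5:**
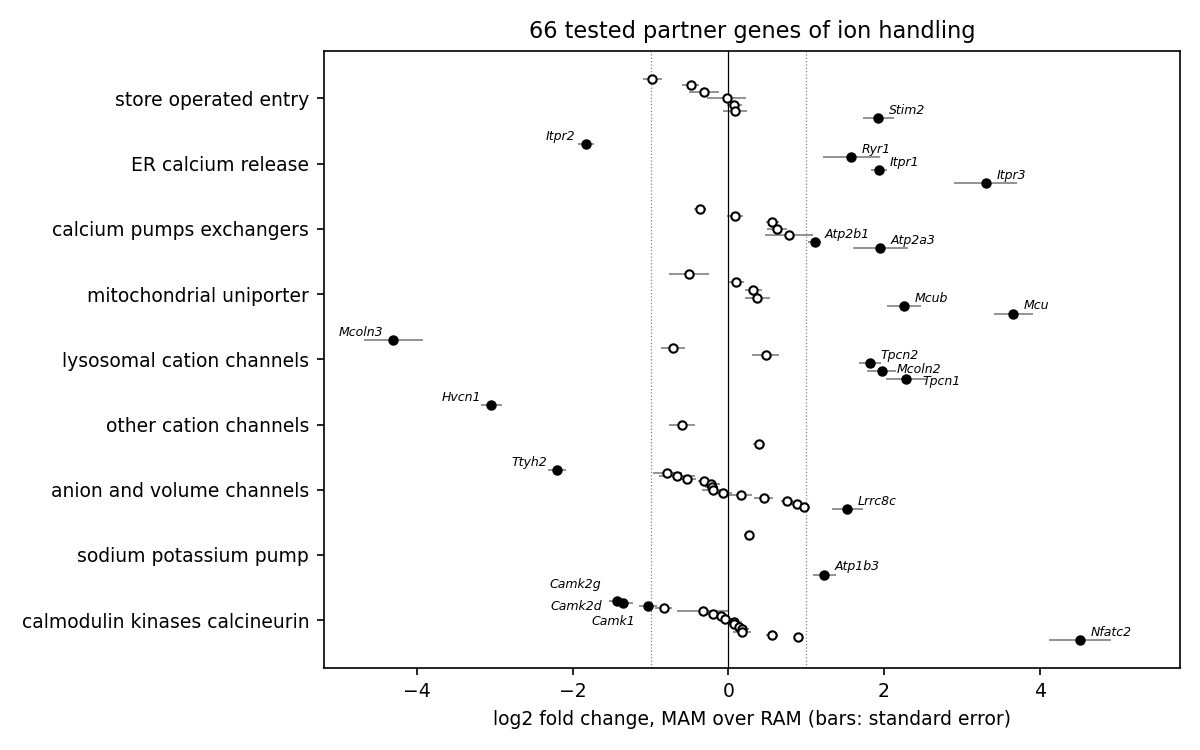
Log2 fold change of MAMs over RAMs for 66 of the 68 tested partner genes in 9 groups (rows), with standard errors from edgeR as bars, filled points for called genes and dotted lines at a 2-fold difference. Of the genes shown, Nfatc2 lies farthest right, at 4.52, and Mcoln3 farthest left, at -4.31.

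Markers of other cells also differed between the groups, and their part in the values above was not tested. The platelet list summed to 348 to 1047 CPM in MAMs against 9.54 to 16.3 in RAMs, carried by Pf4 and by Ppbp, which had 70.8 to 255 CPM in MAMs against 1.60 to 3.35 in RAMs. Both were called higher, while Gp9 and Itga2b reached at most 6.38 CPM in any library. The list for tumor epithelium summed to 9.09 to 23.5 CPM in MAMs against 505 to 626 in RAMs. Krt19 and Cdh1 carried this sum and were both called lower in MAMs, and Krt5 was at 0 in all libraries. RAMs came from normal lungs, so Krt19 and Cdh1 do not mark tumor cells in them. The keratins Krt8 and Krt18 did not follow that sum: Krt8 had 0.615 to 3.31 CPM in MAMs against 0 to 0.205 in RAMs and was not tested, and Krt18 had 0 to 8.84 against 0 to 0.438 (edgeR adjusted p = 0.0715). The lung epithelium list, led by Epcam, summed to 4.82 to 19.1 and 79.5 to 145 CPM. Endothelial genes, led by Kdr, summed to 18.5 to 62.0 and 2.94 to 9.14 CPM, with Cldn5 at 0 in all MAMs, and fibroblast genes, led by Col3a1, to 3.49 to 40.6 and 0.270 to 5.99. Neutrophil genes, led by Cxcr2, summed to 5.88 to 36.6 and 20.5 to 49.5 CPM, with Cxcr2 called lower in MAMs and S100a8 (2.42 to 7.58 against 1.40 to 2.32 CPM) and S100a9 (0.935 to 10.1 against 0.0150 to 1.06 CPM) called higher. Cardiac genes, led by Mybpc3, summed to 12.4 to 24.4 and 30.9 to 55.2 CPM, with Myh6 at 0 in all libraries. Lymphocyte genes, led by Cd79a, summed to 5.16 to 18.1 and 3.77 to 18.8 CPM, with none of 3 tested genes called. Smooth muscle genes, led by Tagln, summed to 12.4 to 22.2 and 11.1 to 16.6 CPM. Lists for dendritic cells (Zbtb46), mast cells (Cpa3) and erythroid cells (Alas2) summed to at most 5.51 CPM in any library, and 4 hemoglobin genes were at 0 throughout. Macrophage genes, led by Lyz2, summed to 21328 to 27844 CPM in MAMs against 30656 to 37840 in RAMs, and single genes went both ways. Csf1r was called higher in MAMs (log2 fold change 2.02) and Mertk lower (-1.57). Under the fold required, Cd68 (0.84) and Adgre1 (0.37) were higher in MAMs, and Mrc1 (-0.89) and Lyz2 (-0.50) lower.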

How the data were processed

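RNA of 5 MAM and 5 RAM samples was amplified and built into libraries with the Ovation RNA-Seq System V2 and sequenced as paired reads. Per the labels, the authors used TopHat2 2.0.13, HTSeq 0.6.1, Cufflinks 2.2.1 and DESeq2 1.6.3 on mm10 (GRCm38). The authors deposited whole-number counts per gene and library, and FPKM values per gene and library. The strand setting of counting is not given in the sources used here.

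Lines that name no gene, 56.5% ± 1.65 of all counted reads in MAMs and 63.2% ± 0.898 in RAMs (SD, n = 5), entered neither library sizes nor tests. Tested were 11571 genes with any count whose mean FPKM reached 1 in either group, with edgeR 4.0.16 in R 4.3.3, by the quasi-likelihood test with TMM factors (0.897 to 0.943 in MAMs, 1.07 to 1.10 in RAMs) and no covariate. The script was tested on simulated data. Alternatives were DESeq2 1.42.0, limma 3.58.1 on log2(FPKM + 1) and log2(FPKM + 0.1), other scalings and filters, a replicate block, subtraction of 1%, a test against 2-fold, and omission of each library. Named were all called channel genes, the 10 highest by FPKM in each group, the 5 untested genes with the highest counts, the 10 called partner genes highest by FPKM (2 of them are not reported here) and the leading gene of each marker list. Other genes named, and the alveolar sum without Marco, were chosen after values were seen. Members and lists were chosen with earlier results of these data known. Gene positions and overlaps came from GENCODE M21, and promoters from RefSeq, with 106 of 140 members matched by symbol.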

Additional observations from a re-analysis of the deposited data

Results flagged for a closer look

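For the 21 named channel genes, 42 groups of 5 libraries were searched for a library far from the other 4, and 8 were found, where chance gives about 1 in 20. MAM replicate 1 was the highest of its group for Kcnn3, at 20.8 CPM against 7.97 to 10.7 in the others, and for Kcnk13, at 38.7 against 21.0 to 25.6. MAM replicate 5 was the highest for Cacnb1, at 12.4 CPM against 1.37 to 3.82, and for Kcnab2, at 114.7 against 91.5 to 93.9, and the lowest for Trpm7, at 118.45 against 153 to 164. RAM replicate 2 was the highest for Kcng2, at 8.17 CPM against 1.42 to 2.26. RAM replicate 3 was the highest for Kcns1, at 5.03 CPM against 1.61 to 2.51. RAM replicate 5 was the lowest for Kcnk5, at 8.76 CPM against 11.8 to 12.9. Without the library in question, Cacnb1 and Kcng2 lost their calls, and Kcnn3, Kcnk13, Kcns1 and Kcnk5 stayed called.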

How the results depend on the processing

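Without a filter on low values, 13 channel genes were called higher and 18 lower in MAMs, against 7 and 10, since more genes were then tested. Among members that overlap no other annotated gene, 3 were called higher (Kcnn4, Kcnk13 and Trpv4) and 7 lower. Leaving out 1 library at a time gave 6 to 7 higher and 9 to 10 lower channel genes, and 15 to 17 higher and 6 to 8 lower partner genes. Of 420 values of named channel genes under alternatives, 382 kept direction and side of the threshold for the adjusted p, 30 dropped below it, 1 rose above it (Trpm7 under upper-quartile scaling, -0.26, adjusted p = 0.0301) and 7 changed sign. The 30 were Cacnb1 14 times, Kcng2 13 times, and Kcnab2, Kcnk7 and Trpv2 once each, against 2-fold. Kcnk7 (-0.89) and Kcns1 (-0.97) also fell under the fold required on log2(FPKM + 1), where 7 were called lower. Fold change sizes depended on processing, apart from omission of libraries. Log2 fold changes ran from 5.32 to 10.7 for Kcnn4, 3.49 to 9.46 for Cacna1d and 3.25 to 8.53 for Kcnk13. They ran from -7.89 to -5.38 for Kcnn3 and 1.81 to 11.6 for Kcnq1. For Cacna1d and Kcnk13 the low end was log2(FPKM + 1) and the high end subtraction of 1%. The 7 values that changed sign were all of Kcnk6. Its log2 fold change was -0.0027 on log2(FPKM + 0.1), -0.0019 on log2(FPKM + 1) and -0.15 under upper-quartile scaling. It was -0.0482 without MAM replicate 1, -0.0287 without MAM replicate 4, -0.0615 without RAM replicate 1 and -0.0043 without RAM replicate 3. Its values without 1 library ranged from -0.0615 to 0.10. Replicate numbers are shared by the groups, but same-numbered libraries did not deviate together (correlations -0.0366 to 0.0294, and 2 of 5 MAM libraries correlated best with their own number). With the number as a replicate block, 6 channel genes were called higher and 10 lower (Cacnb1 1.32, adjusted p = 0.0503), and 16 and 7 partner genes. Amplified reads without molecular identifiers limit what depth can show for genes of few counts.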

Other observations

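Of the 6 untested channel genes without overlap between groups, 4 lie outside the naming rule and were chosen after their values were seen. The 6 are out of 67 untested channel genes with counts, near the 8.91% without overlap among all untested genes with counts. Kcnq5, a voltage-gated potassium channel gene related to Kcnq1, had 0.290 to 3.18 CPM in MAMs and at most 0.0213 in RAMs. Trpm6, a magnesium channel gene related to Trpm7, had 0.0144 to 1.55 CPM in MAMs and 0 counts in all RAMs. Kcnh7 had 0.0181 to 0.470 CPM in MAMs against 0.559 to 2.34 in RAMs, and Kcnj1 at most 0.0375 and 0.0417 to 2.88. For Trpm6 and Kcnj1 the nearest values of the groups were close to 0 CPM, so their separation rests on few counts.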
